A study of Mus musculus with 2 samples.

Results

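The genes examined here encode the machinery of S phase, the part of the cell cycle in which DNA is copied, together with enzymes that supply deoxyribonucleotides. The set held 51 named genes. A gene was taken from the array when a probe set, the group of short oligonucleotides that reads one transcript, carried its symbol and no other symbol. By that rule 50 of the 51 genes were found, on 107 probe sets, among 18193 genes on the array. Chaf1a had no such probe set.

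The RNA, from stromal cells isolated out of C57BL/6 uteri on pregnancy day 4, was measured with Affymetrix 3' expression arrays. The control group was Msx1Msx2 floxed mice, and the null group was mice in which both floxed genes were removed from the uterus with PRcre. PRcre places Cre under the progesterone receptor gene, which is active in uterine stroma, epithelium and muscle, so the deletion was not limited to stroma. Each group was 1 array of RNA pooled from several mice, 5 per genotype by the treatment protocol and 4 by the extraction protocol, so no replicate error exists and no test between genotypes was possible. Every difference below is between 2 pools, and the genotype, the mice and the hybridization cannot be told apart in it.

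Replication begins when the origin recognition complex, Cdc6 and Cdt1 load the MCM helicase onto origins in G1. Cyclin E and its kinase then help activate that helicase together with Cdc45 and GINS, after which primase, the polymerases, the sliding clamp and the ligase copy both strands. Transcription of many of these genes is switched on by E2F factors late in G1, and in the mouse uterus the stroma proliferates around the time of implantation while the epithelium stops dividing.

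The arrays had been scaled alike, with a trimmed mean signal of 150.0 in each. Signals below the median of an array, 31.0 (control) and 30.1 (null), were treated as under the floor, meaning too dim to rank, and were raised to it. Of all genes 11833 had at least 1 signal above the floor, and their median log2 ratio, null minus control, was 0.02. The targeted gene Msx1 went from 1581 in control cells to 23.0 in null cells, at least 52.6-fold lower, and Msx2 from 63.7 to 14.5, at least 2.12-fold lower. The position of their probe sets relative to the deletions is not given in the sources used here. The 3'/5' signal ratio, a measure of RNA integrity that goes up with degradation, was 0.967 and 1.28 for Gapdh and 1.80 and 2.33 for Actb in the control and null arrays. The part of this difference in the results below was not tested.

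The replication genes had higher signals in the null array almost throughout. Of the 50 genes, 48 had a positive log2 ratio and 2 had a negative one (47 of 49 positive among those above the floor in both arrays), where 52.3% of all genes above the floor were positive. At least 1.5-fold higher were 25 of the 50, against 6.79% of all genes, and 0 were 1.5-fold lower, against 6.92%. At least 2-fold higher were 6 genes, namely Mcm6, Cdc45, Rrm2, Lig1, Ccne1 and Esco2, against 1.59% of all genes, and 0 were 2-fold lower, against 1.80%. The median log2 ratio of the 50 was 0.58 and the range ran from -0.18 to 1.37. All 50 passed the floor, 49 of them in both arrays. The 1 exception, Tyms, passed through its null signal alone, which fixes the sign of its ratio. The number past 2-fold was sensitive to the processing, being 2 when the median over all probe sets of a gene was used and 3 with a pseudocount of 16. Mcm6, Ccne1 and Cdc45 lay just past the threshold, at log2 ratios of 1.01, 1.02 and 1.03.

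**Figure D1:**
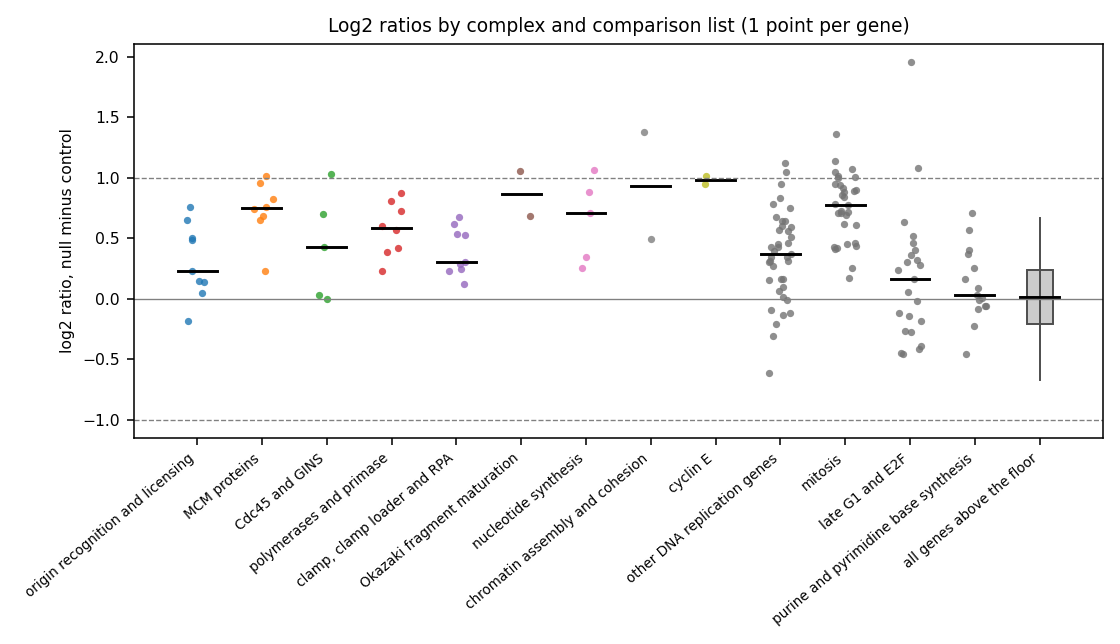
Each point is the log2 ratio (null minus control) of 1 gene, sorted by complex on the left and by comparison list in grey, with a black bar at the median. At the right the box spans the 25th to 75th and the line the 5th to 95th percentile of all genes above the floor (-0.67 to 0.66), and dashed lines mark 2-fold. The MCM proteins centre on 0.75, the origin recognition and licensing genes on 0.23.

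Complexes differed in how far their members stood from the median of all genes. The highest median log2 ratios were those of the cyclin E pair (0.98), chromatin assembly and cohesion (0.93 over 2 genes) and Okazaki fragment maturation (0.87 over 2 genes). The MCM proteins had 0.75 over 8 genes, the nucleotide synthesis enzymes 0.71 over 5, and the polymerases and primase 0.58 over 8. Lower medians were found for Cdc45 and GINS (0.43 over 5), the clamp, clamp loader and RPA (0.30 over 9) and origin recognition and licensing (0.23 over 9). No test of these differences was possible, and the order depended on the processing. With a floor at the 65th percentile the median of chromatin assembly and cohesion was 0.20 and that of Cdc45 and GINS 0.12, and with the median over all probe sets that of chromatin assembly and cohesion was 0.44 and that of nucleotide synthesis 0.13.

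Because E2F factors are known to act on promoters of this kind, the RefSeq promoter windows (GRCm38.p6, 250 bases before the start of a gene to 50 after it) were searched for 4 E2F words, TTTCCCGC, TTTGGCGC, TTTCGCGC and TTTGCCGC, and for the CCAAT box, CCAAT, on both strands. No E2F word contains the CCAAT box, but E2F words can overlap one another. A window was at hand for 40 of the 50 measured genes. An E2F word was found in 15 of these 40 genes (37.5%), where 448 of 9552 genes above the floor with a window (4.69%) and 2.26% of all 32851 windows had one. The MCM genes had the word in 5 of 7 and the licensing genes in 4 of 8, whereas the nucleotide synthesis genes had it in 0 of 5 and the clamp, loader and RPA genes in 1 of 8. CCAAT boxes were in 24 of the 40 genes (60.0%), against 42.6% of genes above the floor and 37.4% of all windows.

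The stretches below are the 180 bases before the start of 6 members. They were chosen to show promoters with an E2F word and larger or smaller ratios, and 1 with a large ratio and no word. Mcm6 and Mcm5 have overlapping E2F words with CCAAT boxes downstream. Cdc6 and Orc1 have 1 E2F word each and log2 ratios of 0.76 and 0.50. Orc3 has an E2F word and a log2 ratio of only 0.13. Rrm2 has no E2F word in its window and a log2 ratio of 1.06. Capitals mark the E2F words and the CCAAT boxes (CCAAT, or ATTGG where it lies on the other strand), and each stretch reads 5′ to 3′ on the strand of the gene. The positions are chr1:128359706-128359885 (minus strand) for Mcm6, chr8:75109329-75109508 (plus strand) for Mcm5, chr11:98907971-98908150 (plus strand) for Cdc6, chr4:108579274-108579453 (plus strand) for Orc1, chr4:34614943-34615122 (minus strand) for Orc3 and chr12:24708074-24708253 (plus strand) for Rrm2.
Mcm6: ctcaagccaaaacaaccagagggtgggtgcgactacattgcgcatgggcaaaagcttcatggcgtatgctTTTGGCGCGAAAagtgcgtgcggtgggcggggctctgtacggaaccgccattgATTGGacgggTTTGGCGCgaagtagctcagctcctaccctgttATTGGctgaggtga
Mcm5: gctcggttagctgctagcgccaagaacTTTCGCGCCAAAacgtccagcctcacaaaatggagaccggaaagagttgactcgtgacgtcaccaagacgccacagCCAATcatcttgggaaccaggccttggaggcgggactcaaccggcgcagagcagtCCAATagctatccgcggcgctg
Cdc6: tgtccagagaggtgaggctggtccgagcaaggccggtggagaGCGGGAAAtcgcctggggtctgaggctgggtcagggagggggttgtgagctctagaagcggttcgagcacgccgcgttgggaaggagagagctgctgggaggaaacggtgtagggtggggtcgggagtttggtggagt
Orc1: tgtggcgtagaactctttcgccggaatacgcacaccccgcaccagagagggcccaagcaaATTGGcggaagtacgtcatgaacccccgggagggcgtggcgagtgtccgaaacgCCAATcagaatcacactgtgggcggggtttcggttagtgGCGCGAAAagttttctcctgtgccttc
Orc3: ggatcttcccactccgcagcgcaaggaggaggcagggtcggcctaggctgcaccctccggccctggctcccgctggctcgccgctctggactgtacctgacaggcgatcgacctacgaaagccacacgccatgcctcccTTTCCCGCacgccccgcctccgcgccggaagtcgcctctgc
Rrm2: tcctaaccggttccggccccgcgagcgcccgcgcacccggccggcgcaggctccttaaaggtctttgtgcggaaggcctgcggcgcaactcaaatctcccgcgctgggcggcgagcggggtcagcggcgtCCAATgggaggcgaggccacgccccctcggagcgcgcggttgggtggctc

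The members with an E2F word had a median log2 ratio of 0.69 over 15 genes, from 0.12 to 1.05, and those without one had 0.53 over 25 genes, from -0.18 to 1.06. The ranges overlapped. At least 1.5-fold higher were 10 of the 15 and 10 of the 25, against 9.47% of the non-member genes above the floor with the word and 6.20% of those without. Among genes above the floor that were not members, 433 had an E2F word, with a median log2 ratio of 0.08 and 61.7% positive, and 9079 had none, with 0.01 and 52.0% positive. Only the members were left out there, so genes of the other replication, mitosis and late G1 lists described below were not removed. A match of these letters is a description of the window and does not show that a factor binds there, and no match says only that the letters are not in the window.

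Origin recognition and licensing genes were split. The 6 Orc genes encode the complex that marks origins. Orc1, its largest subunit and the one whose level varies most with the cell cycle, had signals of 34.9 and 49.2 in the control and null arrays, a log2 ratio of 0.50 from values close to the floor. Orc2 went from 107 to 125 (log2 ratio 0.23), and its other 2 probe sets gave 0.44 and 0.19. The ATPase subunit gene Orc5 had 333 and 369 (0.15). Orc3 had 258 and 283 (0.13), with 0.31 and 0.14 on its other 2 probe sets. Orc6 was nearly equal at 341 and 351 (0.05). Orc4 was the lowest of all the members, at 335 and 295 (-0.18), and 2 further Orc4 probe sets past the floor were also negative, at -0.27 and -0.08. On the probe sets that stand for the genes, the subunits from Orc2 to Orc6 were thus all within 0.27 of 0 on the log2 scale, the SD of a single probe set given below, whereas single further probe sets of Orc2 and Orc3 lay beyond it.

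The loading factors stood above the Orc subunits. Cdc6, the ATPase that joins the origin complex to recruit the helicase, went from 91.5 to 155, 1.69-fold higher. Its partner Cdt1 went from 558 to 876, 1.57-fold higher, and a second Cdt1 probe set gave a log2 ratio of 0.58. Gmnn encodes geminin, the protein that binds Cdt1 and blocks loading again once S phase has begun, and it went from 251 to 351, 1.40-fold higher. Both the loader and its inhibitor were thus higher in the null array.

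Mcm2 to Mcm7 encode the ring-shaped helicase that unwinds DNA, and all 6 were at least 1.5-fold higher. The Mcm6 signal went from 478 to 962, 2.01-fold higher, with a log2 ratio of 0.87 on a second probe set. Mcm5 went from 760 to 1475, 1.94-fold higher, and its second probe set gave 0.93 on the log2 scale. For Mcm2 the values were 310 and 524, 1.69-fold higher on the probe set with the highest mean, whereas the other probe set went from 184 to 430 with a log2 ratio of 1.22. Mcm4 was 1.67-fold higher, from 770 to 1283, Mcm3 1.61-fold higher, from 473 to 760, and Mcm7 1.57-fold higher, from 1440 to 2259. The 3 further Mcm7 probe sets past the floor had log2 ratios of 0.62, 0.55 and 0.45, and those of Mcm3 had 0.89, 0.82 and 0.37. No probe set of these 6 genes above the floor in both arrays was lower in the null array.

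Mcm10 and Mcm8 are not part of that ring. Mcm10, which helps activate the loaded helicase, went from 76.6 to 136, 1.77-fold higher, and its other 2 probe sets were under the floor. Mcm8, which acts mainly in recombination repair, had 67.8 and 79.3, a log2 ratio of 0.22, the smallest of the MCM group.

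Cdc45 and the 4 GINS subunits turn the loaded ring into the active helicase, and their values were uneven. Cdc45 went from 46.7 to 95.1, 2.04-fold higher from a dim control signal, and a floor at the 65th percentile reduced its log2 ratio to 0.22. Gins3, also dim, went from 44.6 to 72.4, 1.62-fold higher. Gins1 had 162 and 218, 1.34-fold higher. Gins2 had 126 and 129 on its brighter probe set (log2 ratio 0.03) and 78.8 and 107 on the other (0.44). Gins4 was at 305 and 303, with a log2 ratio of -0.01 that turned to 0.01 under quantile normalization. The GINS subunits work as one complex, and the ratios of their probe sets were uneven in these arrays. The 2 probe sets of Gins2 alone gave 0.03 and 0.44. Whether the subunits differ beyond probe set noise was not tested.

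**Figure D2:**
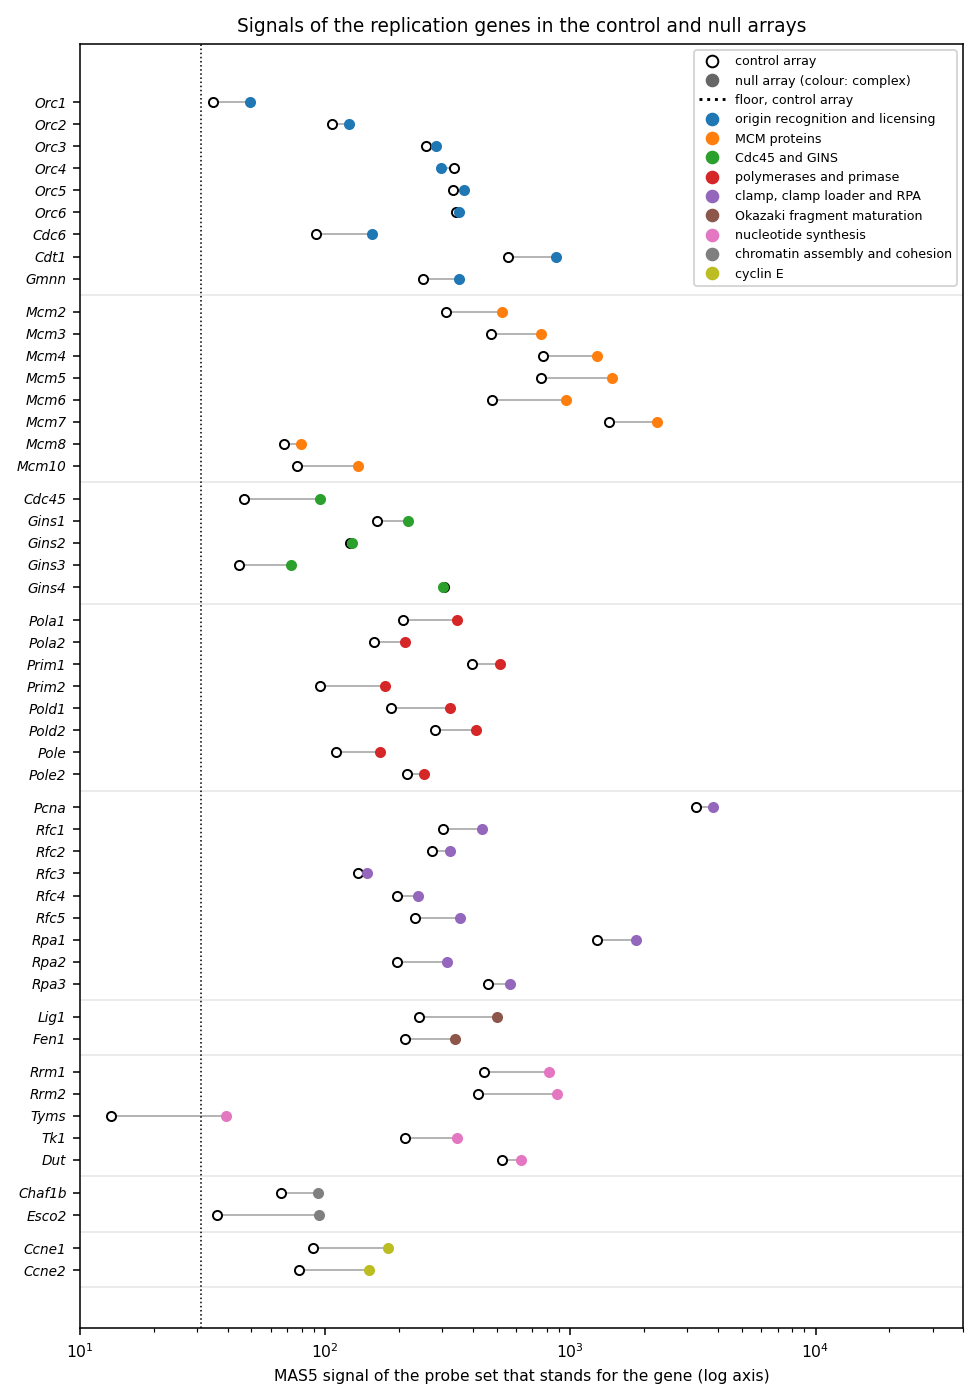
Open circles are the control signal and filled circles the null signal of each of the 50 measured genes on a log axis (MAS5 signal of the probe set that stands for the gene), grouped and coloured by complex, with the control floor of 31.0 dotted. The null circle lies to the right of the control circle in all but Orc4 and Gins4, and Tyms is the gene whose control circle lies left of the floor.

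Polymerase and primase genes were all positive, with log2 ratios from 0.23 to 0.87. Polymerase alpha and primase lay down the first nucleotides of each new strand. Prim2, the large primase subunit, went from 95.2 to 175, 1.83-fold higher, and its second probe set gave a log2 ratio of 0.72. Prim1, the small catalytic primase subunit, had 397 and 517, 1.30-fold higher, but 0.09 on the log2 scale on its second probe set. Pola1, the catalytic subunit of polymerase alpha, went from 208 to 344, 1.65-fold higher, and its accessory subunit Pola2 had 158 and 211, 1.34-fold higher.

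In both elongating polymerases, as in polymerase alpha, the catalytic subunit had a larger ratio than the accessory subunit among the members. In primase the order was the other way, with log2 ratios of 0.38 for catalytic Prim1 and 0.87 for Prim2. The accessory subunits outside the members had log2 ratios of 0.78 (Pold3), -0.31 (Pold4), 0.27 (Pole3) and 0.01 (Pole4). Pold1, the catalytic subunit of the lagging-strand polymerase delta, went from 185 to 324, 1.75-fold higher, and a second probe set gave 0.64 on the log2 scale. Pold2 had 279 and 414, 1.48-fold higher. Pole, the catalytic subunit of the leading-strand polymerase epsilon, went from 111 to 168, 1.51-fold higher, and Pole2 had 216 and 253, 1.17-fold higher. The differences between subunits of one enzyme, on different probe sets, had no test.

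The sliding clamp and its loader stood closer to the other genes. Pcna encodes the ring that holds polymerases on DNA, and its signal went from 3262 to 3811, a log2 ratio of 0.22. Replication factor C, of 5 subunits, opens and closes that ring. Rfc5 went from 232 to 355, 1.53-fold higher, and Rfc1 from 302 to 436, 1.44-fold higher, with log2 ratios of 0.34 and -0.02 on its other 2 probe sets. Rfc4 had 195 and 238 (0.28), Rfc2 had 273 and 324 (0.25) and Rfc3 had 137 and 149 (0.12). The second probe sets of Rfc4 and Rfc3 gave larger log2 ratios, 0.72 and 0.48. Of the 2 further Rfc2 probe sets, 1 gave 0.62 and the other 0.24, close to the value of the first.

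Replication protein A coats single-stranded DNA at the fork. Rpa1, the large subunit, went from 1278 to 1856, 1.45-fold higher, with 0.36 on the log2 scale on its second probe set. Rpa2 went from 196 to 314, 1.60-fold higher, but its second probe set went the other way, from 104 to 76.2 with a log2 ratio of -0.45. Rpa2 was the 1 gene of 24 whose 2 brightest probe sets had opposite signs. Rpa3, the smallest subunit, had 459 and 567, a log2 ratio of 0.30.

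Both enzymes that finish lagging-strand fragments were higher. Lig1, the ligase that seals the nicks, went from 242 to 501 on its only probe set, 2.07-fold higher, and stayed past 2-fold under all 8 alternatives tried. Fen1, the flap endonuclease that trims the primers, went from 211 to 339, 1.60-fold higher, and its second probe set gave 0.54 on the log2 scale.

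The 4 nucleotide enzymes measured in both arrays were positive on the probe sets that stand for them, with the reductase subunits and Tk1 past 1.5-fold. Ribonucleotide reductase turns ribonucleotides into deoxyribonucleotides, and Rrm2 is its S-phase-regulated small subunit. The Rrm2 signal went from 422 to 882, 2.09-fold higher, and its other 2 probe sets had log2 ratios of 0.84 and 0.48. Rrm1, the large subunit, went from 444 to 819, 1.85-fold higher, but 135 to 147 with a log2 ratio of 0.13 on its second probe set. Tk1, the thymidine salvage kinase, had 212 and 346, 1.63-fold higher. Dut, which removes dUTP, had 527 and 628, a log2 ratio of 0.25. Its second probe set went the other way, from 39.4 to 27.4, at least 1.31-fold lower, with the null signal under the floor. Tyms, the enzyme that makes thymidylate, was dim on all 4 of its probe sets, and the one above the floor had 13.3 and 39.4, at least 1.27-fold higher. The median of this group fell from 0.71 to 0.13 with the median over all probe sets, dim ones included.

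Chromatin and cohesion factors act behind the fork. Chaf1b, a subunit of the histone chaperone CAF-1, went from 66.1 to 93.2, 1.41-fold higher. Esco2, the acetyltransferase that locks cohesin on sister chromatids in S phase, went from 36.3 to 94.2, 2.59-fold higher, the highest ratio of all the members. Its control signal was only 1.17 times the floor, and raising the floor to the 65th percentile brought the log2 ratio to 0.20. Cyclin E, the regulatory subunit of Cdk2 at S phase entry, was higher from both of its genes. Ccne1 went from 88.7 to 180, 2.02-fold higher, with a log2 ratio of 1.25 on its second probe set, and Ccne2 went from 78.3 to 151, 1.93-fold higher.

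As a scale for these ratios, the log2 ratios of a gene's 2 brightest probe sets were compared wherever each passed the floor on both arrays. From 4690 such genes a single probe set had an SD of 0.27, with 0.32 for dim, 0.27 for middling and 0.21 for bright genes (tertiles of signal). This SD covers probe noise and isoforms and leaves out the spread between mice and hybridizations. For the 24 members with such a pair the SD was 0.26. Their second probe sets were positive in 22 genes, against 46.3% of all such genes, and at least 1.5-fold higher in 11, against 4.78%. The median log2 ratio of these second probe sets was 0.57, and it was -0.03 over all 4690 genes. Of all 83 probe sets of the members above the floor in both arrays, 77 were positive and 6 negative. A further 3 were above the floor in 1 array, and 21 were under the floor in both. The 83 are not independent readings, since 24 genes had at least 2 of them. The positive share over all probe sets of the array was not computed.

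**Figure D3:**
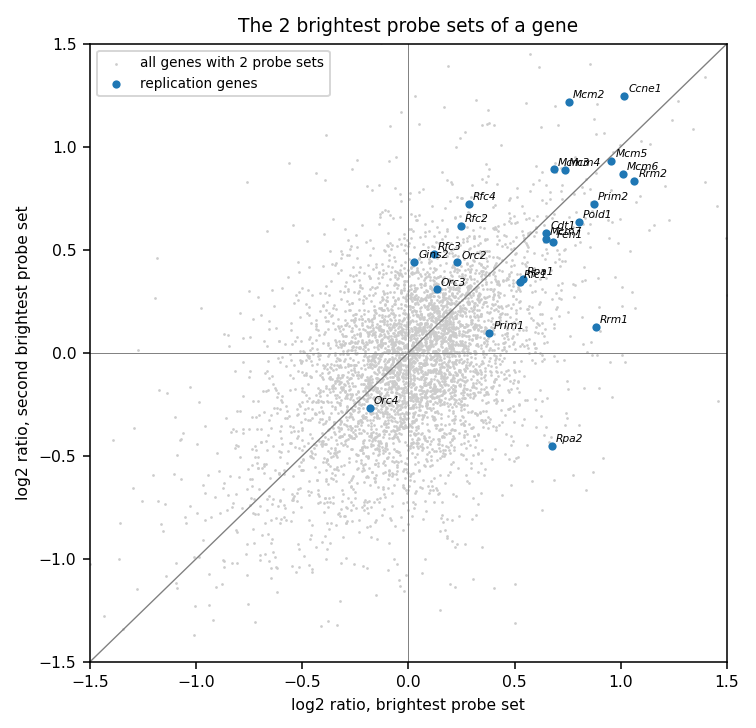
The log2 ratio (null minus control) of the second brightest probe set is plotted against that of the brightest, for all genes with 2 probe sets past the floor on each array (grey) and the 24 replication genes (blue), with the line of equality. 30 genes lie outside the range. The blue points lie in the upper right, where both ratios are positive, except Orc4 at the lower left and Rpa2 below 0.

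**Figure D4:**
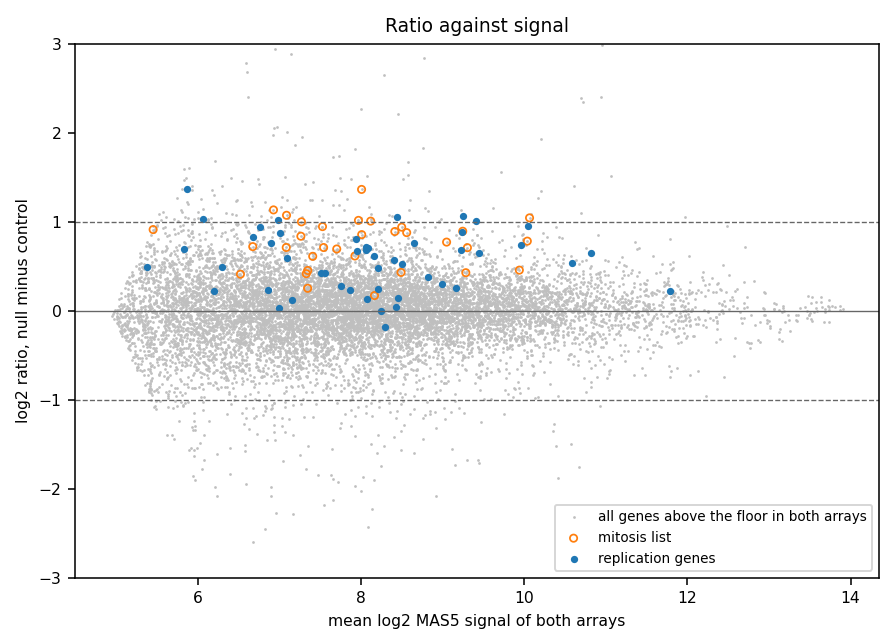
The log2 ratio (null minus control) is plotted against the mean log2 MAS5 signal for all genes above the floor in both arrays (grey), the replication genes (blue) and the mitosis list (orange rings), with dashed lines at 2-fold. 4 genes lie outside the range. Both lists sit above 0 over most of their range of signals, and the scatter of grey points is wider at low signal.

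Other genes of DNA replication, from a list of 40 that held none of the members, were also mostly higher. Of 39 found on the array, 37 passed the floor on each array, and 30 of these were positive, with a median log2 ratio of 0.40. The other two, Ticrr and Chtf18, passed through the null signal alone, which fixes their sign, and with them the median was 0.37. Of the 39, 2 were 2-fold higher and 0 were 2-fold lower. Uhrf1, which guides maintenance methylation of newly made DNA, went from 308 to 669, 2.17-fold higher, and Dscc1, part of an alternative clamp loader, from 49.8 to 103, 2.06-fold higher. The histone chaperone gene Asf1b was 1.93-fold higher, from 116 to 223, and topoisomerase gene Top2a 1.78-fold higher, from 1029 to 1828. Pold3, an accessory subunit of polymerase delta, was 1.72-fold higher, from 122 to 210, with another probe set of opposite sign. The 1 gene at least 1.5-fold lower was Rrm2b, the p53-inducible counterpart of Rrm2, which went from 215 to 140 with a log2 ratio of -0.62 and was picked out after its value was seen.

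Enzymes that build purine and pyrimidine bases did not stand apart from the rest of the array. Of 15 measured genes 9 were positive and 6 negative, 0 passed 2-fold, and the median log2 ratio was 0.03. Cad, which carries out the first steps of pyrimidine synthesis, was the 1 gene past 1.5-fold, from 326 to 535 with a log2 ratio of 0.71, and was also picked out after its value was seen.

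Mitosis genes were higher than the replication genes in median, at 0.78 over 32 genes, all of them positive and 7 past 2-fold. Spc25, a kinetochore subunit, went from 160 to 413, 2.57-fold higher. The kinetochore motor gene Cenpe was 2.20-fold higher, from 82.2 to 180, the kinesin gene Kif20a 2.10-fold, from 93.7 to 197, and the kinetochore gene Cenpf 2.02-fold, from 176 to 356. Mki67, which encodes the antigen used to count cycling cells, had 746 and 1540, 2.06-fold higher. An E2F word was in 1 of 25 mitosis genes with a promoter window (4%), near the 4.69% of genes above the floor, against 37.5% of the replication genes. A CCAAT box was in 18 of the 25 (72%), against 60.0% of the replication genes and 42.6% of genes above the floor.

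Regulators of late G1 were mixed, with 12 positive and 10 negative among 22 genes past the floor on each array and a median of 0.15. Mybl2 passed through its null signal alone, and E2f4 was under the floor. The atypical E2F repressors had the highest ratios. E2f8 went from 78.8 to 306, 3.88-fold higher, and E2f7 from 61.1 to 129, 2.11-fold higher. E2f1, an activator, had 49.7 and 77.0 (log2 ratio 0.63), the Rb relative Rbl1 had 241 and 345 (0.52) and E2f2 had 39.4 and 54.2 (0.46). The lowest of the 10 negative genes was Cdk6, at 183 and 133 (-0.46), nearly as far from 0 as E2f2.

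Markers of several cell types differed between the same arrays. In bulk RNA, more cells of a type and more RNA per cell cannot be told apart. Stromal markers were above the floor in 10 of 10 cases, with summed signals of 54220 (control) and 55955 (null) and a median log2 ratio of 0.10. The collagen genes Col3a1 (14643 and 15211) and Col1a2 (11212 and 12448) were nearly equal. Of the 10 stromal markers, 7 were positive, 2 of these at least 1.5-fold higher, and 3 were negative. Epithelial markers were present too, 10 of 10 above the floor, with sums of 11182 and 9244 and a median log2 ratio of -0.11. Of the 10, 8 were negative, among them the 2 brightest in the control array, Krt18 (2822 and 1350) and Krt8 (2255 and 1703). At least 1.5-fold lower were 2 of the 10, and 2 were at least 1.5-fold higher. Krt19 was the 1 epithelial marker past 2-fold higher, and Foxa2 and Krt18 were past 2-fold lower.

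Endothelial markers summed to 3589 and 2352, all 8 negative, with Emcn at 954 and 515 and Cdh5 at 769 and 634. Macrophage markers summed to 6064 and 4033, all 8 negative, with C1qb at 1416 and 857 and Csf1r at 1286 and 909. Natural killer and T cell markers, taken as 1 list, summed to 1765 and 3063, with 6 of 7 measured genes positive. Gzmb was at 752 and 1371 and Gzma at 573 and 1063. The T cell genes of the list did not go one way, with Cd3d at 38.1 and 82.2, Cd3g at 95.2 and 87.8 and Cd3e under the floor. Smooth muscle markers summed to 9798 and 12655, with 5 of 6 positive, Acta2 at 5052 and 6696 and Tagln at 2075 and 2738. Des was in both the stromal and the smooth muscle list.

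All 3 erythroid genes on the array, Alas2 and Klf1 among them, were under the floor. Of 5 blastocyst genes Cdx2, Nanog and Pou5f1 were under the floor, Elf5 had 10.7 and 37.2, and Eomes, which natural killer cells also express, had 71.6 and 113. No marker signal was exactly 0. Immediate early and heat shock genes, known to respond to tissue digestion, were negative in 16 of 16 cases, with a median log2 ratio of -0.48 and sums of 54504 and 39703. The share of these cell types and of the digestion response in the replication gene ratios was not tested.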

How the data were processed

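Uterine stromal RNA of 2 genotypes was hybridized to 1 array each. The table deposited by the authors holds 1 intensity (linear MAS5 signal) for each probe set and array. The submitters' processing notes name MAS5 and Affymetrix Expression Console 1. Scaling and background settings are not given in the sources used here. A probe set was named through the platform annotation. Of 45101 probe sets, 64 were controls and 34945 had 1 symbol, and the Entrez IDs of all 50 measured members carried the same symbol in the RefSeq table of GRCm38.p6. Signals were taken to log2 with pandas 2.3.3 and numpy 2.4.6 in Python 3.11.15. A gene was represented by its brightest probe set, by mean log2 signal. A gene was used with at least 1 signal above the 50th percentile of its array, and a dimmer signal was raised to that floor, so its fold is a bound ("at least"). With 1 array per group no p-value exists, and genes were called by size, at 2-fold and 1.5-fold.

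All measured members are named. From the 3 cell cycle lists the text names the up to 5 genes with the largest ratios above the floor in both arrays, Mki67 and Top2a, and from each marker list the 2 genes with the highest control signal. Krt19, Foxa2, Cd3e, Des, Ticrr, Chtf18, Mybl2, E2f4, Rrm2b and Cad, and the under-floor genes Cdx2, Nanog and Pou5f1, were picked out after their values were seen. The same holds for Pold4, Pole3, Pole4, Cdk6, Cd3d and Cd3g. The members and lists were chosen with earlier results of these data known. The scripts were tested on simulated data. Alternatives were another floor or none, other probe set rules, centring, quantile normalization and a pseudocount. The number of arrays limits the precision.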

Additional observations from a re-analysis of the deposited data

How the results depend on the processing

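Across 8 alternatives, of which 1 (the median over those probe sets of a gene that passed the floor on both arrays) was chosen after seeing the data, 390 of 396 values of single members kept their sign and 377 moved by less than the SD of a single probe set. The 6 others were those of Mcm10, Pola2, Tyms and Dut with the median over all probe sets (-0.05, -0.05, -0.05 and -0.07), of Tyms with the added median (-0.05) and of Gins4 with quantile normalization (0.01). Those of about -0.05 are the difference between the floors of the arrays. The number of members with a positive ratio ranged from 44 to 49, the number past 1.5-fold from 18 to 26, and the median from 0.34 to 0.61. The number past 2-fold ranged from 2 to 7. It was 2 (Lig1 and Ccne1) with the median over all probe sets and 3 (Rrm2, Lig1 and Esco2) with a pseudocount of 16. With a floor at the 65th percentile the medians of Cdc45 and GINS and of chromatin assembly and cohesion were 0.12 and 0.20, and with the median over all probe sets those of nucleotide synthesis and of chromatin assembly and cohesion were 0.13 and 0.44. Without a floor, 9.88% of all genes were at least 2-fold higher, since dim signals have unstable ratios. No paired analysis was possible because each group has 1 array.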
